A study of Drosophila melanogaster with 2 samples.

Results

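Transfer RNA (tRNA) genes of the nuclear genome were examined for binding of CG31365-GFP, the protein encoded by the Drosophila melanogaster gene CG31365 carrying a green fluorescent protein tag, in whole embryos. The members were all genes of biotype tRNA on the main nuclear chromosomes in the Ensembl release 115 annotation of BDGP6.54, which has the same sequence as the dm6 assembly of the peak lists. They numbered 290 of the 17896 genes considered. Symbols give the amino acid, the anticodon, the sequence family and the copy, so that tRNA:Thr-AGT-1-4 is copy 4 of family 1 of threonine tRNA genes with anticodon AGT. By these symbols the members fell into 22 isotypes, counting initiator methionine (iMet) and selenocysteine (SeC) separately, and into 45 pairs of isotype and anticodon. Start sites within 2000 bp of each other were merged, which gave 160 loci, of which 91 held 1 gene and the largest held 7.

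The series held 1 group: chromatin immunoprecipitation followed by sequencing (ChIP-seq) from embryos of 0 to 24 h, of mixed sex, from a transgenic line in which GFP is fused to the C terminus of CG31365. The labels number the 2 biological replicates 2 and 3 and name neither the promoter nor the number of insertions, and no untagged or other control group was analysed here. A free-text label calls both libraries an input control, while the title, antibody and target labels describe immunoprecipitation of CG31365, and the libraries were treated here as immunoprecipitated. The 4 deposited lists were peaks kept by the irreproducible discovery rate step (IDR peaks, 2821), and 30000 peaks and background regions for the pooled replicates and for each replicate. Sequencing depth was not given in the sources used here, so a missing peak may be a matter of depth. A gene was counted with a peak when a summit lay within 1000 bp of its start site.

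Transfer RNA genes are short genes read by RNA polymerase III. Their promoter elements, the A box and the B box, lie inside the transcribed sequence and are bound by the factor TFIIIC, which places TFIIIB just upstream of the start, and transcription ends in a run of T. Many tRNA genes exist as several copies of identical sequence at separate places, so the copies of a family share the internal promoter and differ in their flanks. The peak signal is the authors' peak caller's own value and is used here only to describe and rank peaks within a list, where rank 1 is the highest.

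The 4 highest tRNA peaks on chromosome 3 are shown first because they include the tallest peak at any tRNA gene. Each sequence covers 151 bases centred on the summit in the dm6 assembly, is read 5′ to 3′ on the strand of the tRNA gene, and has the word AAGCAGT or its reverse complement in capitals. The word was found earlier in these same peaks, so its presence here is a description. The intervals are chr3R:16431771-16431921 (plus strand) for threonine, chr3L:14674149-14674299 (plus) for initiator methionine, chr3R:22397425-22397575 (plus) for serine and chr3R:6819323-6819473 (plus) for lysine. All but the lysine summit lay within 120 bp upstream of the gene, and the bases shown before each start are flank rather than tRNA.
tRNA:Thr-AGT-1-4 summit: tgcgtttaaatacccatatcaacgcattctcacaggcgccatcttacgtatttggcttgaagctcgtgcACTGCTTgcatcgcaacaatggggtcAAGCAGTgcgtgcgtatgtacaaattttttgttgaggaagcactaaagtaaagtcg
tRNA:iMet-CAT-1-5 summit: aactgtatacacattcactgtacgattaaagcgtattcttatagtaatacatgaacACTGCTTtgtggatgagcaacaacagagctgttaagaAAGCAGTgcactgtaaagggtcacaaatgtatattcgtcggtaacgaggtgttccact
tRNA:Ser-GCT-2-5 summit: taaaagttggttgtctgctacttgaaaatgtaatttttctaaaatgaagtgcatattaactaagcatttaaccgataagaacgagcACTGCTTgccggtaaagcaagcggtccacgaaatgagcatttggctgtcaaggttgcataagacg
tRNA:Lys-TTT-2-1 summit: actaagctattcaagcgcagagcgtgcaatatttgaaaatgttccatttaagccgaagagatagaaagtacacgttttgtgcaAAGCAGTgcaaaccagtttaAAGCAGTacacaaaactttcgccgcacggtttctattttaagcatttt

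The highest of these peaks belonged to a family whose copies are identical in the gene and differ in the flank. Family Thr-AGT-1 has 7 copies of the same 74 bases, and the pooled signal within 1000 bp of their starts was 11554 at copy 4, 214 at copy 2, 70.6 at copy 7, 67.0 at copies 5 and 6, which share a summit, and 61.2 at copy 1, with no summit at copy 3. In replicate 2 the values were 7327, 112, 47.9, 41.8, 41.8 and 38.5 in the same order, and in replicate 3 they were 4244, 96.8, none, 28.3, 28.3 and 22.2. Copy 4 was therefore far above the other copies in each list. The 100 bases upstream of 6 of the copies are shown on the strand of each gene, ending at the base before the start, with AAGCAGT in capitals on either strand. The word was in the flank of copy 4 in both orientations, and not in the other 5 flanks shown. Copy 2, the only other copy with an IDR peak (rank 1176, signal 214), is not printed here, and it had 0 copies of the word within 500 bp of its start, so a peak of lower signal was also seen without the word.
tRNA:Thr-AGT-1-4 upstream: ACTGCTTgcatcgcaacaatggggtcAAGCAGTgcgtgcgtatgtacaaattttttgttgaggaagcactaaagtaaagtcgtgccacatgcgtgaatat
tRNA:Thr-AGT-1-1 upstream: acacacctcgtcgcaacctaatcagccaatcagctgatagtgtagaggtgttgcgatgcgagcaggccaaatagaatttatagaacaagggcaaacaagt
tRNA:Thr-AGT-1-3 upstream: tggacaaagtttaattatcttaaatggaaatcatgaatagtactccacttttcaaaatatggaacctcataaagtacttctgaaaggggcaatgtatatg
tRNA:Thr-AGT-1-5 upstream: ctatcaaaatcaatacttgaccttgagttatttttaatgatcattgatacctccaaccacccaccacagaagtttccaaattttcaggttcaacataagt
tRNA:Thr-AGT-1-6 upstream: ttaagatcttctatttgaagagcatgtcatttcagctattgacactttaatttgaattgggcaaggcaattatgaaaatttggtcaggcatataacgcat
tRNA:Thr-AGT-1-7 upstream: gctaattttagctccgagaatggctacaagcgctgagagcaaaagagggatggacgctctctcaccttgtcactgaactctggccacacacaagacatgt

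A gene sequence is given for contrast from Ser-GCT-2, a family whose 5 copies all lie on 3R. The gene of copy 5 (chr3R:22397572-22397653, plus strand, between genes) is shown with its match to the B box pattern GTTCNANNC in capitals.
tRNA:Ser-GCT-2-5 gene: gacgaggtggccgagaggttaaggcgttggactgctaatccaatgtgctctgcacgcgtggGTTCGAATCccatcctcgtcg
Copies 3, 4 and 5 shared the peak of rank 35, whose summit was 72 bp upstream of copy 5, and copies 1 and 2 had no IDR peak. At copy 2 the best pooled summit ranked 16827, and copy 1 had none. Across all members the B box pattern was in 271 of 290 genes (93.4%), and a run of TTTT followed within 60 bp of the end in 290 of 290. In the first 73 bases of other genes the B box pattern was in 1.43%. The 19 genes without the pattern were 12 alanine genes with anticodon AGC, the 6 initiator methionine genes and tRNA:Thr-AGT-2-1.

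IDR peaks lay at 80 of the 290 tRNA genes (27.6%, 95% Wilson interval 22.8 to 33.0) and at 12.7% of the other 17606 genes. The control file that the listing names for the peak calls was not analysed here, so whether tRNA genes also gave signal without the tagged protein was not tested, and the higher share is that of called peaks. Intervals cover counting error only, and neighbouring genes often share a peak, so genes are not independent. In the pooled list a summit was at 225 of the 290 genes (77.6%, interval 72.4 to 82.0) against 53.1% of other genes, which left 145 genes with a summit in the pooled list only and 65 with none. Among protein-coding genes the shares were 13.9% with an IDR peak and 55.6% with a pooled summit, and among small nucleolar RNA genes 16.7% and 43.9%. Each replicate gave a like picture: of the 2821 highest peaks in replicate 2, a summit was at 77 tRNA genes (26.6%) and at 13.0% of other genes, and in replicate 3 at 73 (25.2%) and 12.8%. In both of these at once, summits were at 62 tRNA genes (21.4%, interval 17.1 to 26.5) and at 9.71% of other genes.

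Merged loci gave a lower share. Of the 160 loci, 35 had an IDR peak (21.9%, interval 16.2 to 28.9) and 116 a pooled summit (72.5%). Loci with 1 gene had an IDR peak in 8 of 91 cases (8.79%, interval 4.52 to 16.4), loci of 2 or 3 genes in 20 of 54 (37.0%, interval 25.4 to 50.4), and loci of 4 or more in 7 of 15 (46.7%, interval 24.8 to 69.9). Because longer loci cover more sequence, summits were also counted per length of window. There were 10.9 IDR summits per 100 kb within 1000 bp of tRNA starts and 5.60 around other starts, with 4.39 at loci of 1 gene and 16.7 at larger loci. Pooled summits below the IDR list came to 45.9 per 100 kb at tRNA genes against 34.1 elsewhere.

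The tRNA peaks spanned nearly the whole range of height. The 80 genes shared 42 distinct IDR peaks, with signal from 125 to 11554 and a median of 188, close to the median of 190 over all IDR peaks. The upper quartile was 445 at tRNA genes and 296 over all IDR peaks. As a best rank per gene, 4.83% of tRNA genes had a pooled summit of ranks 1 to 200 against 0.954% of other genes, and 22.8% against 11.7% had a best summit of lower rank within the IDR list. From rank 2822 to rank 5642 the shares were 10.3% and about 10%. The lowest IDR peak at a member was at tRNA:Gly-GCC-1-12 (rank 2802, signal 125), and the nearest pooled summits outside the list were at tRNA:Arg-TCT-1-1 (rank 2967, signal 121), tRNA:Arg-ACG-1-2 (rank 3061, 119) and tRNA:Asp-GTC-1-5 (rank 3132, 117).

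Peaks of rank 200 or better numbered 8 and served 7 loci. The second highest peak of the whole list (chr3R:16431475-16432108) lay 94 bp upstream of tRNA:Thr-AGT-1-4 in an intron of CG31279, whose own start was 351 bp away. The peak of rank 10 (chr3L:14673862-14674520, in an intron of ome) had signal 6780 in the pooled list, 3775 in replicate 2 and 3018 in replicate 3, and lay between the divergent genes tRNA:iMet-CAT-1-4 and tRNA:iMet-CAT-1-5, 211 and 120 bp upstream of their starts. The initiator tRNA starts translation. Serine genes tRNA:Ser-GCT-2-3, tRNA:Ser-GCT-2-4, tRNA:Ser-GCT-1-1 and tRNA:Ser-GCT-2-5 shared the peak of rank 35 (chr3R:22397120-22397731), with signal 3757, and 2138 and 1629 in replicates 2 and 3. Lysine gene tRNA:Lys-TTT-2-1 lay 496 bp downstream of the summit of rank 37 (chr3R:6819069-6819737, between genes), with signal 3743, and 2436 and 1323 in the replicates. The nearest other start there was that of a 7SL RNA gene, 1031 bp away.

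The other 4 of these peaks lay on 2R. At tRNA:Arg-ACG-1-3 the summit of rank 22 (chr2R:6169315-6169791) was 62 bp upstream of the gene and 458 bp from a start of EcR, the ecdysone receptor gene, with signal 5122, and 3328 and 1809 in replicates 2 and 3. In an intron of gol, 1 interval (chr2R:25075657-25077164) carried 2 summits, of rank 34 at 110 bp upstream of tRNA:Ala-CGC-1-2 (signal 3775, replicates 2118 and 1672) and of rank 58 at 37 bp upstream of tRNA:Ala-CGC-1-1 (2816, replicates 1769 and 1057). These are the only genes with anticodon CGC apart from tRNA:Ala-CGC-1-3, which lay inside the same interval. The peak of rank 114 (chr2R:17392390-17392813) was the exception in position, 372 bp downstream of the start of tRNA:Ala-TGC-2-1, with signal 1258, and 735 and 533 in the replicates.

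**Figure D1:**
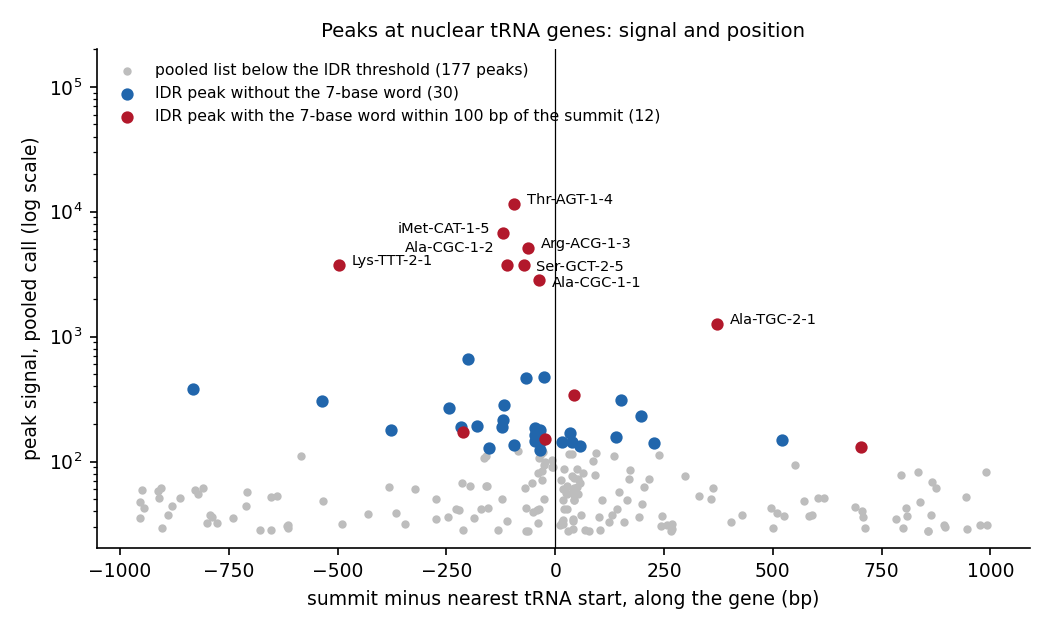
Signal in the pooled call (log scale) against the distance of the summit from the nearest tRNA start along the gene, for the 42 IDR peaks and the 177 lower pooled peaks at tRNA genes. All 8 peaks with a signal over 1000 held the 7-base word AAGCAGT (red), and 7 of them lay upstream of the start.

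Below these the signal dropped to under 700. Tyrosine gene tRNA:Tyr-GTA-1-8 had its summit just over 200 bp upstream (3R, rank 229, signal 662, replicates 375 and 287), 243 bp from the start of CG8036. At tRNA:Lys-CTT-1-5 (2R, rank 345, signal 477) and tRNA:Phe-GAA-1-5 (2R, rank 355, signal 467) the summits were 25 and 68 bp upstream. The peak near tRNA:Val-TAC-1-1 (3L, rank 474, signal 380) was 832 bp upstream of it and 165 bp from CG46456. At tRNA:Ser-CGA-1-4 (2R, rank 553, signal 341) the summit fell inside the gene, which lies in an intron of hts. Peaks of ranks 656, 688 and 754 on 2R lay at tRNA:Glu-TTC-1-5 (signal 310), tRNA:Ile-AAT-1-9 (303) and tRNA:Ser-TGA-2-1 (285).

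Starts of other genes were nearer at some of the next peaks. The summit of rank 820 on 2R was 243 bp upstream of tRNA:Trp-CCA-2-2 and 44 bp from CG30122, with signal 268. The summit of rank 1052 on X was 198 bp downstream of the start of tRNA:Phe-GAA-1-2 and 107 bp from RpL17, a ribosomal protein gene, with signal 230. In all, the nearest start of any gene was that of a tRNA gene for 36 of the 42 peaks (85.7%, interval 72.2 to 93.3), and the others were nearest to CG46456, CG30122, RpL17, CG8490, Naam and CG34228. The 20 highest tRNA peaks were completed by those at tRNA:Thr-AGT-1-2 (2R, rank 1176, signal 214) and tRNA:Arg-CCT-1-2 (2R, rank 1370, signal 193), with summits 121 and 179 bp upstream.

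Summits of IDR peaks tended to lie upstream of the nearest tRNA start. This held for 30 of 42 (71.4%, interval 56.4 to 82.8), with a median offset of -46 bp, and 20 of the 42 were within 100 bp of the start. Lower pooled peaks at tRNA genes lay upstream in 76 of 177 cases (42.9%, interval 35.9 to 50.3), with a median of +27 bp, and the intervals of the 2 shares did not overlap. A summit inside the gene was seen for 5 of 42 IDR peaks (11.9%) and 38 of 177 lower peaks (21.5%). Per length of sequence, IDR summits reached 52.8 per 100 kb (15 summits) in the 100 bp before tRNA starts. In the first 100 bp after them the value was 17.3, and around other starts the values were 18.3 before and 11.7 after. Between 100 and 200 bp from the start the values were 29.7 before and 11.8 after tRNA starts, and 17.7 and 3.59 around other starts. The upstream lean of IDR summits was therefore not particular to tRNA genes. Lower pooled summits had the opposite order at tRNA genes, 77.4 before and 135 after the start, against 83.8 and 72.3 around other starts.

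**Figure D2:**
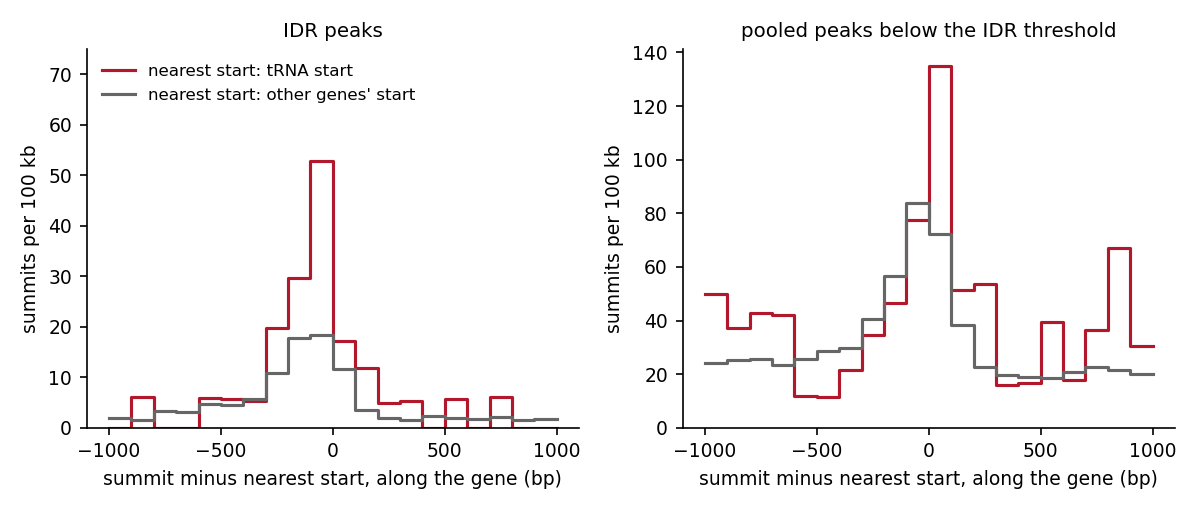
Summits per 100 kb in bins of 100 bp around the nearest tRNA start (red) and the nearest start of any other gene (grey), for IDR peaks (left) and for lower pooled peaks (right). IDR summits peaked at 52.8 just before tRNA starts, and lower pooled summits peaked at 135 just after them.

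The word AAGCAGT, searched on both strands, was most frequent in the high tRNA peaks, where it had been found. It lay within 100 bp of the summit in 12 of 42 tRNA IDR peaks (28.6%, interval 17.2 to 43.6), in 13.0% of other IDR peaks and in 10 of 177 lower pooled peaks at tRNA genes (5.65%). By rank it was in 8 of 8 tRNA peaks of ranks 1 to 200, where 71.9% of other peaks had it, in 1 of the next 9, down to rank 1000 (14.8% of others), and in 3 of the last 25 (5.90% of others). Peaks with the word had a median signal of 3280 (130 to 11554), and the 30 without it had a median of 178 (125 to 662). The 2 ranges overlapped only through 4 peaks with the word, at tRNA:Ser-CGA-1-4 (signal 341), tRNA:Ala-AGC-2-1 (174), tRNA:Gly-TCC-1-2 (152) and tRNA:Arg-TCT-1-1 (130).

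Not every copy of the word near a tRNA gene had a peak. The word was within 500 bp of 50 tRNA starts (17.2%, against 12.7% of the first starts of other genes), and 19 of these 50 genes had an IDR peak (38.0%, interval 25.9 to 51.8), as did 61 of the other 240 (25.4%, interval 20.3 to 31.3). Of 50 distinct copies, an IDR summit lay within 100 bp of 8 of 12 placed 31 to 150 bp upstream of the start (66.7%, interval 39.1 to 86.2), 4 of 10 placed 151 to 500 bp upstream, 2 of 16 between 30 bp upstream and 80 bp downstream, and 1 of 12 further downstream. The 8 copies all lay at peaks of rank 200 or better, among the peaks in which the word had been found. At ranks 2 and 10, 2 copies shared a summit, so copies are not independent. In the high peaks the word was centred 97, 136, 89, 58, 58, 485 and 52 bp upstream and 363 bp downstream, in order of rank. Of the copies, 14 overlapped the tRNA gene itself, in glycine genes with anticodon TCC and in serine genes with AGA and CGA, and an IDR summit was near 2 of these and near 13 of the 36 copies outside.

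The glycine gene tRNA:Gly-TCC-1-2 illustrates the word inside a tRNA gene. Its 151 bases around the summit (chr3R:7130967-7131117, minus strand) start in the upstream flank and run into the gene, and the word in capitals begins inside the gene. Of the 6 glycine genes with this anticodon 1 had an IDR peak, at rank 1982 with signal 152, below all 8 peaks of rank 200 or better.
tRNA:Gly-TCC-1-2 summit: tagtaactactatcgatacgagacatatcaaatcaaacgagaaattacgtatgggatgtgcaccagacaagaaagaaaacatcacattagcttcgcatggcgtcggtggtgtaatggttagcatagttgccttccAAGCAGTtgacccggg

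Copies of a family often differed in whether they had a peak. Of 43 groups of tRNA genes with identical sequence (238 genes), 25 held copies with and copies without an IDR peak, 2 had a peak at every copy and 16 at none. A copy was counted with any summit within 1000 bp of its start, and several such summits were nearer the start of another gene. In glycine family Gly-GCC-1, 2 of 13 copies had an IDR peak, best at copy 9 (rank 820), and in lysine family Lys-CTT-1, 4 of 13 had one, best at copy 5 (rank 345). The summit of rank 820 was 482 bp downstream of the start of glycine copy 9 and 44 bp from the start of CG30122. Alanine family Ala-AGC-2 had peaks at 3 of 11 copies, 1 in an intron of nmo and 2 sharing a peak on 3R. The shared summit was 46 bp upstream of tRNA:Pro-TGG-1-2, and 177 and 301 bp downstream of the starts of alanine copies 2 and 3. Arginine family Arg-ACG-1 had peaks at 4 of 10 copies, with pooled signal of 5122, 477, 152 and 143, while the best summits at the other 6 had 32.6 to 86.5. Asparagine family Asn-GTT-1, also of 10 copies, had peaks at 8, all of modest height between 144 and 164. Lysine family Lys-TTT-2 had the peak of rank 37 at copy 1 and none at the other 4 copies.

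Repeated sequence limits where reads can be placed. The share of 36-base words found once in the genome within 100 bp of the start had a median of 79.4% at genes with an IDR peak, 78.6% at genes with a pooled summit only and 79.6% at genes with none. These windows are mostly flank: inside the gene itself, 238 of 290 tRNA genes (82.1%) had no such word at all, among them 69 of the 80 genes with an IDR peak. The median share inside the gene was 0 for genes with an IDR peak, with a pooled summit only and with none. Reads lying wholly inside most genes could therefore not be told apart between copies at this word length, which bears on the counts of summits inside genes and on the comparison of identical copies, and its part in them was not tested. Within 100 bp of the start the share was under 50% at 10 genes, of which 8 had no pooled summit, among them copies 2 and 3 of Lys-TTT-2 with 17.9%. At tRNA:Lys-TTT-2-1 it was 48.8%. Median GC content within 100 bp of the summit was 40.8% at tRNA IDR peaks and 39.3% at other IDR peaks. Genes between other genes had an IDR peak in 44 of 155 cases (28.4%), and those in introns of other genes in 33 of 127 (26.0%), so the shares differed by less than their intervals. The share was 8 of 72 (11.1%, interval 5.74 to 20.4) where the nearest other start was over 5000 bp away. It was 32 of 98 (32.7%, interval 24.2 to 42.4) where that start was within 1000 bp. Between 1000 and 5000 bp it was 40 of 120 (33.3%, interval 25.5 to 42.2). The share was thus lowest beyond 5000 bp and alike in the nearer bands, and the part of neighbouring starts in it was not tested.

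Chromosome arms differed widely. On 2R, 55 of 98 tRNA genes had an IDR peak (56.1%, interval 46.3 to 65.5), while the share of other genes there was 13.2%. On 3R it was 17 of 79 (21.5%, other genes 13.5%), on 3L 6 of 48 (12.5%, other genes 13.3%), on X 1 of 24 (4.17%, other genes 11.7%) and on 2L 1 of 41 (2.44%, other genes 11.5%). Without 2R, 25 of 192 tRNA genes had an IDR peak (13.0%, interval 8.98 to 18.5), and 12.5% of other genes did, so the higher share of tRNA genes overall rested on 2R. Among loci off 2R, 15 of 112 had one (13.4%). The replicates showed the same split: among their 2821 highest peaks, replicate 2 had summits at 52.0% of tRNA genes on 2R and 13.5% elsewhere, and replicate 3 at 50% and 12.5%. In the pooled list, summits were at 85.7% of tRNA genes on 2R and 73.4% elsewhere, both above the 52.5% and 53.2% of other genes.

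**Figure D3:**
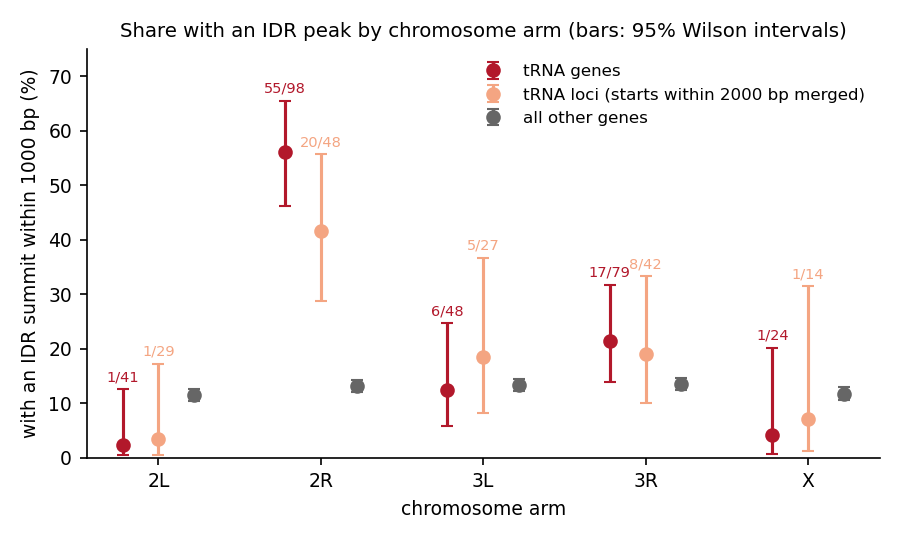
Share of tRNA genes, tRNA loci and other genes with an IDR peak, by chromosome arm, with 95% Wilson intervals and the counts for tRNA genes and loci. The 2R tRNA genes (55 of 98) stand above the other arms, where the intervals of tRNA genes and other genes overlap.

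The 2R excess sat in loci of several genes. Loci of 2 or more genes had an IDR peak in 19 of 25 cases on 2R and in 8 of 44 elsewhere, while loci of 1 gene had one in 1 of 23 on 2R and in 7 of 68 elsewhere. Genes in loci of 2 or more made up 75 of 98 on 2R and 124 of 192 elsewhere. The peaks themselves were alike in height, with a median signal of 191 for the 26 on 2R and 183 for the 16 elsewhere, and 4 of each were of rank 200 or better. Per length of window there were 21.4 IDR summits per 100 kb on 2R and 6.05 elsewhere, while lower pooled summits came to 47.0 and 45.4. The median share of words found once was 79.6% on 2R and 78.9% elsewhere, and the median distance to another gene's start was 1469.5 and 2220.0 bp; the part of these in the difference was not tested.

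Of the stretches along the chromosomes, 3 held 10 or more tRNA genes with no gap over 50000 bp. The densest in peaks (2R, 6142165 to 6190445, over and beside EcR and Ptr) had 19 genes for arginine, asparagine, isoleucine and lysine, of which 17 had an IDR peak, from 7 peaks of signal 143 to 5122. On 3R (17617761 to 17668259), 5 of 18 genes had one, from 2 peaks. On X (14014814 to 14117810), none of 14 arginine and serine genes had an IDR peak and 7 had a pooled summit. Outside the first stretch, 38 of 79 tRNA genes on 2R had an IDR peak (48.1%, interval 37.4 to 58.9).

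Isotypes ran from 80% of genes with an IDR peak to none. Asparagine genes led with 8 of 10 (interval 49.0 to 94.3), all 8 in the stretch on 2R. Initiator methionine had 4 of 6 (66.7%, interval 30 to 90.3) and isoleucine 6 of 11 (54.5%), where all 6 had anticodon AAT and tRNA:Ile-AAT-1-9 was highest. Alanine had 8 of 17 (47.1%), made up of 3 of 3 genes with anticodon CGC, 2 of 2 with TGC and 3 of 12 with AGC. Serine had 8 of 20 (40%), with 4 of 6 for GCT, 2 of 2 for TGA, and 1 each of 8 for AGA and of 4 for CGA, highest at tRNA:Ser-AGA-2-4 (rank 1563) and tRNA:Ser-CGA-1-4. The interval of asparagine lay above those of lysine, threonine, proline, glycine, cysteine, glutamine, leucine and aspartate, though its 8 genes shared 3 peaks.

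A middle group lay near the share of all tRNA genes. Histidine had 2 of 5 genes with an IDR peak, at tRNA:His-GTG-1-2 and tRNA:His-GTG-1-3 (rank 1429). Their shared summit was 978 and 217 bp upstream of them and 33 bp from the start of CG8490. Phenylalanine and tryptophan each had 3 of 8. Arginine, with the most genes, had 9 of 26 (34.6%): 4 of 10 with anticodon ACG, 2 of 3 with CCT, 2 of 10 with TCG and 1 of 3 with TCT. Valine had 5 of 15, with 2 of 6 for AAC, 2 of 7 for CAC and 1 of 2 for TAC. Glutamate had 6 of 19, with 3 of 6 for TTC and 3 of 13 for CTC, the 5 peaks near them lying at 2 loci. Lysine had 5 of 19, with 4 of 13 for CTT and 1 of 6 for TTT.

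The remaining isotypes had few or none. Tyrosine had 2 of 10 genes with an IDR peak, threonine 3 of 17, all with anticodon AGT, and proline 3 of 17, with 2 of 5 for TGG, 1 of 5 for CGG (tRNA:Pro-CGG-2-3, rank 1433) and 0 of 7 for AGG. Methionine had 1 of 6, glycine 3 of 20 and leucine 1 of 22 (4.55%, interval 0.807 to 21.8), the last at tRNA:Leu-CAA-2-1 (rank 1659). This summit lay inside tRNA:Ile-AAT-1-4, 34 bp after its start, and was 203 bp upstream of the leucine gene. The methionine summit was 912 bp upstream of tRNA:Met-CAT-1-1 and 120 bp from the start of CG34228. Aspartate had 0 of 14, glutamine 0 of 12, cysteine 0 of 7 and selenocysteine 0 of 1. A count of 0 allows a share of up to 21.4% for aspartate, 25% for glutamine and 42.9% for cysteine. Pooled summits below the IDR list reached rank 3132 at aspartate and 3291 at glutamine genes but only 15267 at cysteine genes, where 2 of 7 genes had one.

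**Figure D4:**
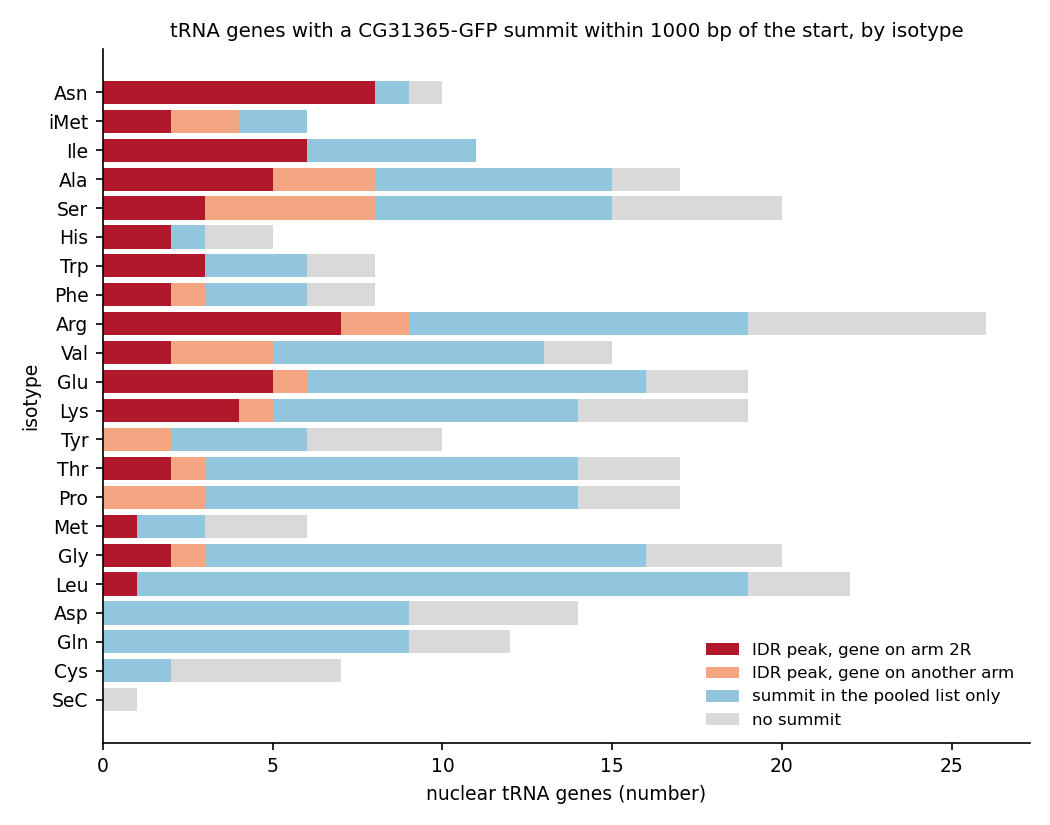
Number of nuclear tRNA genes per isotype, divided into genes with an IDR peak on 2R (dark red) or another arm (light red), genes with a summit in the pooled list only (blue) and genes with none (grey), ordered by the share with an IDR peak. Asparagine (8 of 10) is at the top, and aspartate, glutamine, cysteine and selenocysteine have no IDR peak.

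Isotype and chromosome arm were entangled. Of 16 isotypes with genes on 2R and elsewhere, the share with an IDR peak was higher on 2R in 14 and equal in 2. Arginine had 7 of 8 on 2R and 2 of 18 elsewhere, alanine 5 of 5 and 3 of 12, and glutamate 5 of 9 and 1 of 10. The 4 isotypes without an IDR peak had 2 of their 34 genes on 2R, and all asparagine genes with a peak were on it. Isotype and arm cannot be told apart for these groups. Initiator methionine was 1 of the 2 with equal shares, with 2 of 3 genes on 2R and 2 of 3 elsewhere.

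Replicates ranked the tall peaks alike and the low ones less so. Of the 42 IDR peaks, 41 were matched within 100 bp in both replicate lists (97.6%), and 29 were among the 2821 highest of both (69.0%, interval 54.0 to 80.9). Over the 41 peaks the log2 signals of the replicates had Pearson's r of 0.952 and Spearman's rho of 0.753, as a description, since the peaks come from the same 2 libraries. In 5 peaks the ranks differed by more than 3 times: replicate 2 ranked the peak at tRNA:Phe-GAA-1-2 at 789 and replicate 3 at 7360, and for tRNA:Arg-TCT-1-1 the ranks were 1612 and 11946, for tRNA:Glu-CTC-2-2 1610 and 10811, for tRNA:Ile-AAT-1-3 1363 and 5272, and for tRNA:His-GTG-1-3 3862 and 812. None of these was among the 8 highest tRNA peaks. At tRNA:Arg-TCG-2-4 no summit of replicate 2 lay within 100 bp.

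**Figure D5:**
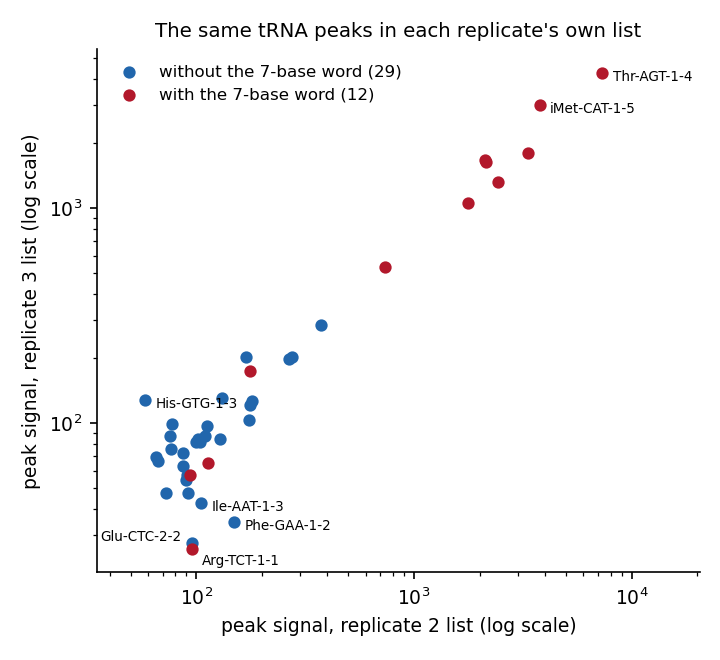
Signal of 41 tRNA peaks in the replicate 2 list against the replicate 3 list (both log scales, each on its own list's scale), with the peaks that hold the 7-base word in red. The 8 highest lie along a line in both lists, and the named peaks at lower signal had ranks that differed by more than 3 times, apart from the labelled pair at the top.

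Other genes tied to RNA polymerase III were counted in 4 lists. Of 103 other RNA genes of this polymerase, 96 were copies of the 5S rRNA gene, where 1 had an IDR peak (1.04%, interval 0.184 to 5.67). All 96 had under 50% of 36-base words found once within 100 bp of the start, with a median of 0, so reads there may not be placeable and the low share cannot be read as absence of binding. Of the 7 other RNA genes (U6, 7SL, RNase P and RNase MRP), 2 had an IDR peak (28.6%, interval 8.22 to 64.1) and 5 a pooled summit. The U6 spliceosomal RNA genes snRNA:U6:96Ab and snRNA:U6:96Ac shared 1 of rank 1122 (signal 221), and 5SrRNA:CR33452 shared that of tRNA:Glu-CTC-2-2. The 7SK RNA, though planned for this list, was not in these counts. A pooled summit of rank 5532 (signal 82.6) lay 10 bp from the start of snRNA:7SKa. Among 15 genes for subunits and factors of the polymerase, 2 had an IDR peak: Brf (rank 669, signal 307, 148 bp upstream, with 1 copy of the word) and Bdp1 (rank 1916, signal 155), both subunits of TFIIIB. Aminoacyl-tRNA synthetase genes, which charge tRNAs with amino acids, had one in 6 of 35 cases (17.1%, interval 8.10 to 32.7), highest at CysRS (signal 921), LeuRS-m (265), GluProRS (156) and IleRS (136). None of 11 tRNA processing genes had an IDR peak and 7 had a pooled summit, which allows a share of up to 27.3% for the first. With 12.7% of all other genes called, the intervals of the 7 RNA genes, the subunits and factors, the synthetases and the processing genes all held the background.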

How the data were processed

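The data were peak lists from ChIP-seq of CG31365-GFP in 2 biological replicates of 1 group. Chromatin was sonicated to fragments of 200 to 800 bp, per the labels. The authors deposited 4 narrowPeak lists on dm6, each made from library alignments and a control file, per the file listing. The deposited signal value is the peak caller's own, is comparable only within a list, and ranked the peaks here. The deposited summit offset gave the summit positions. Aligner, caller, IDR threshold and depth are not given in the sources used here.

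Summits were assigned to every tRNA start within 1000 bp with Python 3.11.15, pandas 2.3.3 and numpy 2.4.6, and the assignment was tested on simulated peaks. Gene positions came from Ensembl and sequences from RefSeq, whose assembly is the same. Shares carry 95% Wilson intervals, and the limit for a count of 0 is 3 counts. With 1 group there was no contrast, and no p-value was computed. Named genes were those of the 20 highest tRNA peaks, the highest per isotype or anticodon, the 4 largest families of mixed copies, and up to 4 genes per other list. The families Thr-AGT-1, Ser-GCT-2, Lys-TTT-2 and Asn-GTT-1 were added after their values were seen. The members and lists were chosen with earlier results of these data known. Windows, list length, replicates, locus merging, word distance and, after the data were seen, leaving out 2R were varied.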

Additional observations from a re-analysis of the deposited data

How the results depend on the processing

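Of 46 alternative values, 33 moved by less than the interval of the value reported and 13 by more. The share of tRNA genes with an IDR peak (27.6%) was 13.1% for summits within 200 bp, 21.4% within 500 bp and 33.4% within 2000 bp, 12.8% with the 1410 highest IDR peaks, and 13.0% without 2R, an alternative chosen after the data were seen. The share of other genes was not computed for the other windows or the shorter list, so their 12.7% is no background for those values. The share of loci (21.9%) was 15.6% within 200 bp, 11.2% with the shorter list and 13.4% without 2R. The median signal (188) was 472 with the shorter list and 101 to 111 in the list of 1 replicate alone, which is on its own scale. The share of summits upstream (71.4%) was 87.5% without 2R, and the share with AAGCAGT (28.6%) was 45.0% with the shorter list. A shorter list or narrower window holds fewer summits by construction; for the effect of 2R the cause was not tested. Leaving out either replicate gave 25.2% to 26.6% of genes, 20% to 21.2% of loci, 71.4% to 75% of summits upstream and 27.8% to 31.0% with the word. Depth was unknown, so a missing summit is no evidence of absent binding. No paired analysis was possible because there was 1 group.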

Other observations

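Leucine tRNA genes combined many members with few IDR peaks. Of their 22 genes, 19 had a pooled summit and 1 an IDR peak, and the best pooled ranks by anticodon were 3252 for CAG, 3730 for TAA, 4172 for TAG and 6569 for AAG. The highest IDR summit at that 1 gene lay inside tRNA:Ile-AAT-1-4. Outside 2R, 0 of 15 leucine genes had an IDR peak, which allows a share of up to 20%. Of the 10 lower pooled peaks at tRNA genes that held AAGCAGT, the highest was 28 bp upstream of tRNA:Arg-ACG-1-2 (rank 3061, signal 119). In 3 of the 10 the word overlapped a serine or glycine gene, at tRNA:Ser-AGA-2-5, tRNA:Ser-AGA-3-2 and tRNA:Gly-TCC-1-1.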
